A study of Mus musculus with 8 samples.

Results

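The G2 and mitosis genes are 40 genes whose transcripts accumulate late in the cell division cycle and whose proteins carry a cell into and through mitosis. They were chosen by symbol, and all 40 were found among the 34070 Ensembl identifiers of the count table, each under 1 identifier. PolyA RNA came from suspended epidermal cells of adult mice, 18 to 25 weeks old, killed at zeitgeber time ZT4, which is 4 h after the lights came on. In the 4 Bmal1cKO libraries the mice were K14-Cre;Bmal1flox/flox, so that Cre under the keratin 14 promoter of basal keratinocytes recombines the floxed Bmal1 alleles. Bmal1 encodes an activator of the circadian clock. In the 4 Bmal1WT libraries the mice were K14-Cre;Bmal1wt/wt and so carried the same Cre. Cells outside the keratin 14 lineage keep Bmal1 in both groups, and only 1 time of day was sampled. Whether every library had its own animal is not in the labels, and the p values therefore cover the spread among these libraries, part of which may be technical.

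Total counts ran from 35685261 to 50396156 per library. Values per library are given in CPM, the count of a gene relative to its library's total, here with totals scaled by TMM, the trimmed mean of M values. Bmal1 (symbol Arntl) was at 46.1, 42.0, 49.1 and 48.7 CPM in Bmal1WT replicates 1 to 4 and at 32.0, 34.4, 37.6 and 30.7 CPM in Bmal1cKO replicates 1 to 4, so its groups did not overlap (log2 fold change -0.47 ± 0.08, SE, edgeR adjusted p = 0.0611, and 0.0358 with the replicate number as a block). Counts were summed over all exons, and which of them Cre removes is not in the labels. The labelled tissue was checked against 12 basal keratinocyte markers, which summed to 21400 to 24800 CPM, and 12 suprabasal markers, which summed to 14000 to 29200 CPM, with 0 of the 24 without counts. Sex is not in the labels. Xist and Y-linked genes placed replicates 1 and 3 of each group with females and replicates 2 and 4 with males.

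Entry into mitosis is driven by the kinase CDK1 with cyclin A2 and the B-type cyclins. The spindle checkpoint then holds the cell until every chromosome is attached, after which CDC20 and the anaphase-promoting complex (APC/C) mark cyclin B for destruction and the cell divides. The genes of these proteins are held down in resting cells by the DREAM complex and are switched on late in the cycle by MYBL2 and FOXM1, largely through a promoter element called the cell cycle genes homology region (CHR), often beside CCAAT boxes bound by NF-Y. In the epidermis, divisions take place in the basal layer and in hair follicles, and in mouse skin the share of cells in DNA synthesis is known to vary with the time of day.

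The promoters of 4 members are shown because these genes carry the comparisons that follow. Ttk is the member whose groups were apart, with Bmal1cKO higher, as were those of 2.64% of all tested genes. Mki67 differed between the sexes, and Cdk1 and Ccnb1 encode the catalytic and the cyclin subunit of the same kinase. Each sequence runs 5′ to 3′ on the strand of its gene from 250 bases before to 50 bases after the start, from RefSeq on GRCm38.p6. Capitals mark the CHR letters TTTGAA and the CCAAT box on either strand, so that TTCAAA and ATTGG are matches too.
Ttk: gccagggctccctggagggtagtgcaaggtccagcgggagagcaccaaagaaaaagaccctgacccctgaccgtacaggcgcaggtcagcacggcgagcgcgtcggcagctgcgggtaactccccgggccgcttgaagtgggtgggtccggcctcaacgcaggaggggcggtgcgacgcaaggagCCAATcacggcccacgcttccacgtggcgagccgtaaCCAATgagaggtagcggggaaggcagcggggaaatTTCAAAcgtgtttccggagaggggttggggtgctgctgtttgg
Mki67: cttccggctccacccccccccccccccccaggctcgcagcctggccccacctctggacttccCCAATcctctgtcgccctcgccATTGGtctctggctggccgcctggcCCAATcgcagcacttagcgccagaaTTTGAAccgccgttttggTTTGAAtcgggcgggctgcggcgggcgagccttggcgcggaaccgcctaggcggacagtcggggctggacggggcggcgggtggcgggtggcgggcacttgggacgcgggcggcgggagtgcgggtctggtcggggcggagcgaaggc
Cdk1: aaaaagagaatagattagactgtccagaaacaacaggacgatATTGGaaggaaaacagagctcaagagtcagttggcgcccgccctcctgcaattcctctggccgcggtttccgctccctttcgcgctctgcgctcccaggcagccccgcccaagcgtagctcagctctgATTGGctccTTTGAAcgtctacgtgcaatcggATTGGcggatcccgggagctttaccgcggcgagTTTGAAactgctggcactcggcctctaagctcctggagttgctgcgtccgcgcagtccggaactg
Ccnb1: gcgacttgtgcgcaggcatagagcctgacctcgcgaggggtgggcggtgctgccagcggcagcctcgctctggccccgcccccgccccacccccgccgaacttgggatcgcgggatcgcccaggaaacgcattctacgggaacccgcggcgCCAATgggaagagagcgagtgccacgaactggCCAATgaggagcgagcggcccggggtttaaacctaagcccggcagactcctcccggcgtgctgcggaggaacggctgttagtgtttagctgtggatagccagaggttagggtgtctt
These windows are chr9:83834439-83834738 on the plus strand for Ttk, chr7:135716330-135716629 on the minus strand for Mki67, chr10:69352863-69353162 on the minus strand for Cdk1 and chr13:100786437-100786736 on the minus strand for Ccnb1. Ttk holds 1 TTTGAA match and 2 CCAAT boxes, Mki67 and Cdk1 hold 2 and 3 each, and Ccnb1 holds 0 and 2. Other forms of the CHR are not marked, so 0 matches do not show that the element is absent. The CHR letters of Ttk lie just after the start, and those of Mki67 and Cdk1 lie before it.

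The promoter table holds 37 promoters for 35 of the 40 members. Ccna2, Foxm1, Aurkb, Tpx2 and Kif20a have no entry. TTTGAA on either strand was found in 29 of the 37 (78.4%), against 17.9% of the 32851 promoters in the table. CCAAT was likewise found in 29 (78.4%), against 37.4%, and both together in 25 (67.6%), against 6.95%. Of the 37 TTTGAA matches in these promoters, 29 began within 50 bases of the start. A second form of the CHR, TTCGAA, was found in 3 member promoters (8.11%), against 1.56% of all promoters. They were those of Bub1, Bub1b and Top2a, and Bub1 held no TTTGAA. The E-box CACGTG, the letters that CLOCK and BMAL1 bind, was found in 2 member promoters (5.41%), those of Ttk and Anln, against 7.15% of all promoters. In 66 promoters of further G2 and mitosis genes TTTGAA was found in 34 (51.5%) and CCAAT in 41 (62.1%). In 38 promoters of S phase genes TTTGAA was found in 4 (10.5%) and CCAAT in 21 (55.3%). These are matches of letters, with no binding measured here.

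Across the 40 members, differences between the genotypes were small. The median log2 fold change, Bmal1cKO over Bmal1WT, was 0.11, against -0.01 for all 19646 genes tested. Of the members 26 lay above 0 and 14 below, where 47.0% of all tested genes lay above 0. The range ran from -0.21 for Cenpf to 0.41 for Ttk. EdgeR's quasi-likelihood test called 0 members at an adjusted p under 0.05, where it called 0.173% of all genes. DESeq2 and limma voom also called 0 members, and the lowest adjusted p of a member was 0.34 by edgeR. At an unadjusted p under 0.05 there were 6 members, all higher in Bmal1cKO, where 8.30% of all genes passed and 4.50% were higher. The 6 were Ttk, Spc25, Kif11, Foxm1, Aurkb and Mad2l1. With the replicate number as a block there were 9, of which 8 were higher, against 6.34% of all genes, and 1 was lower, against 5.13%. Ndc80 and Top2a joined the 6, and Cenpf was the lower one. Again 0 were called, with a lowest edgeR adjusted p of 0.119. The groups were apart for 1 member, Ttk, which was higher in Bmal1cKO, against 5.15% of all genes in either direction and 2.64% that were higher. Between libraries of the same number, 7 members were higher in Bmal1cKO in all 4 pairs, namely Ttk, Foxm1, Kif11, Mad2l1, Aurkb, Ndc80 and Cdca3, and Cenpf was lower in all 4. Of all genes 9.63% were higher and 9.69% lower in all 4 pairs. The 95% intervals of the 40 differences lay between -0.54 and 0.68 on the log2 scale, that is between a fold of 0.687 for Kif2c and 1.60 for Bub1. In bulk RNA the number of cycling cells and the RNA per cycling cell cannot be told apart.

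**Figure D1:**
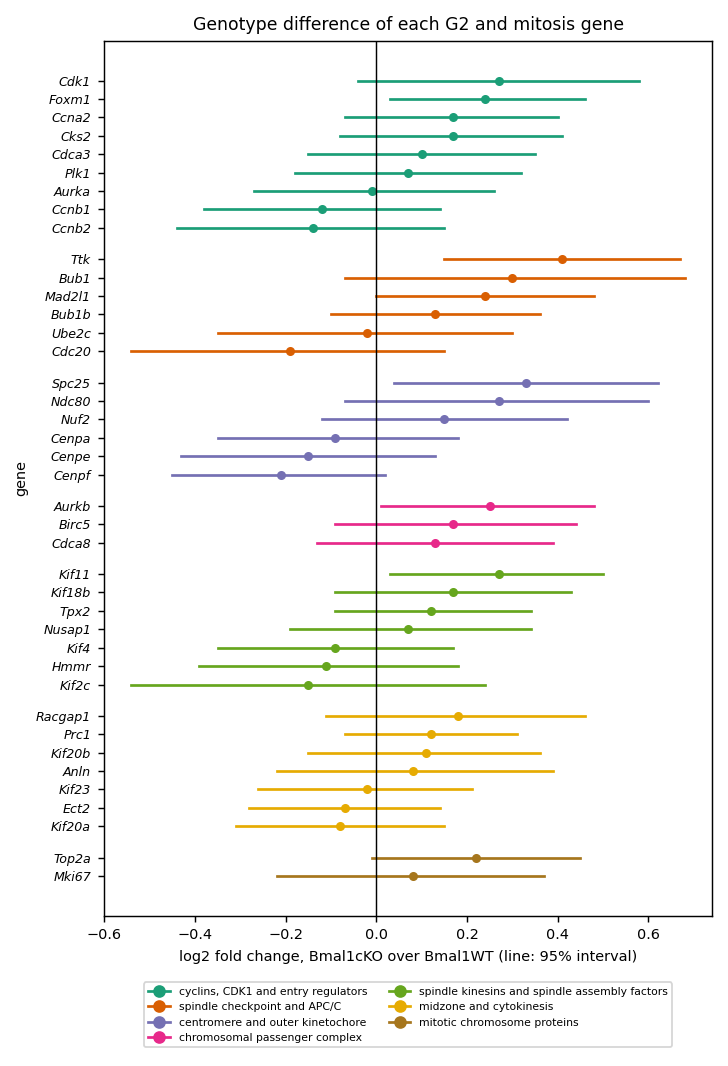
Log2 fold change, Bmal1cKO over Bmal1WT, of each of the 40 genes (x axis), in 7 roles by colour (y axis), with points for the edgeR estimate and lines for its 95% interval. The estimates run from -0.21 to 0.41, and the intervals of 6 genes, led by Ttk, lie above 0.

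The members also differed between libraries of one group. Bmal1cKO replicate 2 held the highest value of 35 of the 40 members, as it did for 8.48% of all tested genes. Bmal1cKO replicates 2 and 4, both read as male, were the 2 highest libraries for 23 members, against 6.23% of all genes. Bmal1WT replicate 1 held the lowest value of 23 members, against 11.1% of all genes. Bmal1cKO replicate 3 held that of 13, for which the share of all genes was not counted. These places were counted after the values had been seen. Set against each gene's own mean over the 8 libraries on a scale of log2(CPM + 0.5), the median member was at -0.21, 0.00, 0.01 and 0.01 in Bmal1WT replicates 1 to 4. In Bmal1cKO replicates 1 to 4 it was at -0.09, 0.29, -0.15 and 0.12. Bmal1WT replicates 2 to 4 thus lay together, and Bmal1WT replicate 1 was the lowest of the 8 libraries. Those of Bmal1cKO were spread on both sides of Bmal1WT replicates 2 to 4. The summed level of the members ran from 1020 to 1200 CPM in Bmal1WT and from 1050 to 1430 CPM in Bmal1cKO, and the highest library was 1.40 times the lowest. For single members, the highest library was 1.28 to 1.93 times the lowest, with a median of 1.51.

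**Figure D2:**
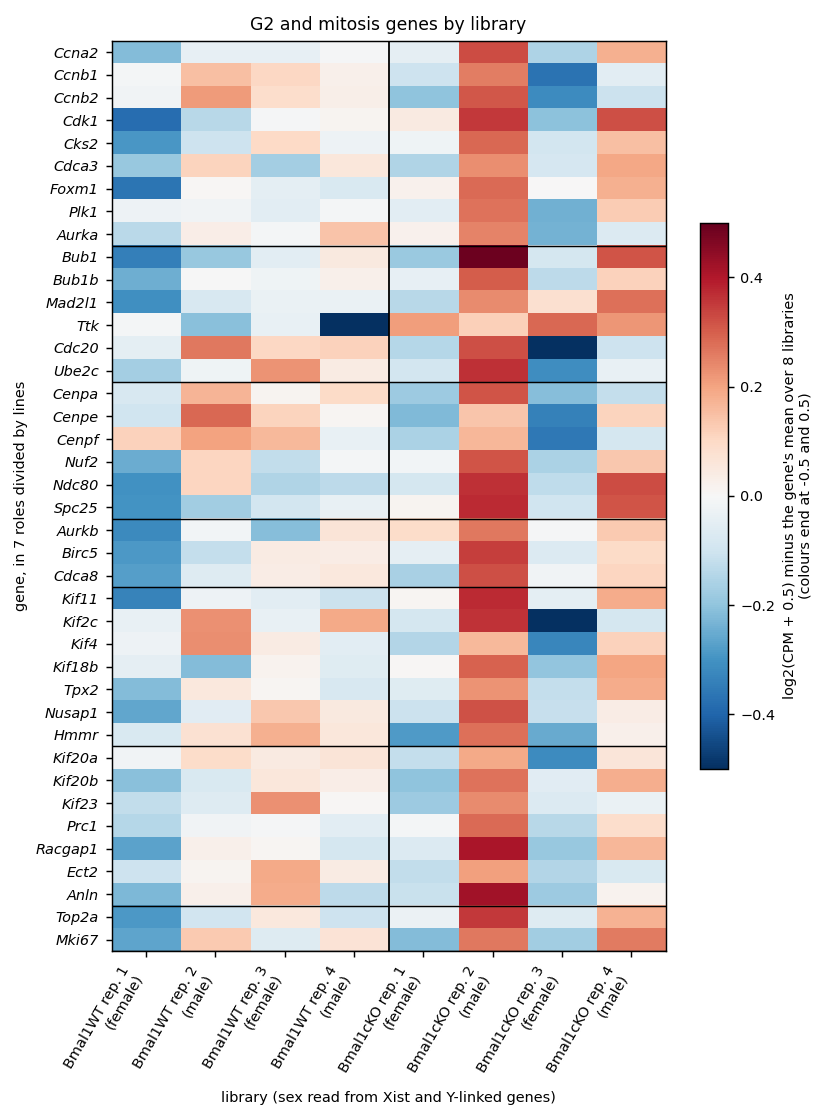
Log2(CPM + 0.5) of the 40 genes (rows, in 7 roles) in each of the 8 libraries (columns) minus the gene's mean over the 8 libraries, with red above and blue below the mean. Bmal1cKO replicate 2 is red in every row, and Bmal1WT replicate 1 and Bmal1cKO replicate 3 are mostly blue.

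Some counts of members changed with single libraries. Without Bmal1cKO replicate 2, 22 members lay above 0 and 18 below, with a median of 0.04, and at an unadjusted p under 0.05 there was 1 member higher and 7 lower in Bmal1cKO, against 3.47% and 2.82% of all genes. Without Bmal1WT replicate 1, 1 member passed at an unadjusted p under 0.05, against 8.33% of all genes. Without Bmal1cKO replicate 4, 1 member passed as well, against 6.67%, and without Bmal1cKO replicate 3, 11 passed, against 9.04%. Leaving out Bmal1WT replicate 2, 3 or 4 or Bmal1cKO replicate 1 gave 5 to 7 such members, against 6 with all libraries. The shares of all genes were not counted for these fits. Leaving out any library other than Bmal1cKO replicate 2 kept 26 to 31 members above 0.

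In all, 9 members encode the cyclins, CDK1 and regulators of mitotic entry, and 6 of them lay above 0, with a median of 0.10. Cdk1, the mitotic kinase, was at 15.0, 17.9, 19.7 and 20.0 CPM in Bmal1WT and 20.4, 25.3, 17.0 and 24.8 CPM in Bmal1cKO (log2 fold change 0.27 ± 0.14, SE, edgeR adjusted p = 0.651). Its groups overlapped through Bmal1cKO replicate 3, while the other 3 Bmal1cKO libraries lay above all of Bmal1WT. Foxm1, the transcription factor of the late cycle, was at 18.7, 24.4, 23.4 and 23.0 CPM in Bmal1WT and 24.6, 29.6, 24.3 and 27.5 CPM in Bmal1cKO (0.24 ± 0.10, edgeR adjusted p = 0.543). The overlap of its groups was 1 library deep, Bmal1WT replicate 2 against Bmal1cKO replicate 3.

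Ccna2, the cyclin of S phase and G2, was at 27.2, 30.8, 30.8 and 31.5 CPM in Bmal1WT and 30.7, 39.9, 28.4 and 35.9 CPM in Bmal1cKO (0.17 ± 0.10, edgeR adjusted p = 0.746). Ccnb1, the main mitotic cyclin, was at 28.1, 31.4, 30.4 and 28.7 CPM in Bmal1WT and 26.2, 33.8, 21.7 and 27.2 CPM in Bmal1cKO (-0.12 ± 0.12, edgeR adjusted p = 0.868). For Ccnb1 the highest and the lowest of the 8 libraries were both Bmal1cKO. Its counts are uncertain because the pseudogene Ccnb1-ps held 3894 counts over the 8 libraries, beside 9244 of Ccnb1. The ratio of Ccnb1 to Ccnb1-ps counts was 2.38 to 2.50 in Bmal1WT and 2.15 to 2.48 in Bmal1cKO. Among the others of this role, Ccnb2, the second B-type cyclin, had a log2 fold change of -0.14, Cks2, a CDK-binding subunit, 0.17, Cdca3, a trigger of mitotic entry, 0.10, and the kinases Plk1 and Aurka 0.07 and -0.01.

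A further 6 members serve the spindle checkpoint and the APC/C, with a median of 0.18 and 4 of them above 0. Ttk, the checkpoint kinase also called MPS1 (ENSMUSG00000038379, chromosome 9, 83834689 to 83872389), was at 31.6, 27.5, 31.0 and 21.2 CPM in Bmal1WT and 36.8, 34.6, 39.0 and 37.2 CPM in Bmal1cKO. All 4 Bmal1cKO libraries lay above all 4 of Bmal1WT, as they did for 2.64% of all tested genes. The means were 27.8 ± 4.80 and 36.9 ± 1.78 CPM (SD, n = 4). The log2 fold change of 0.41 ± 0.12 (SE) missed the threshold, with an edgeR adjusted p = 0.34. Under the alternatives its adjusted p was 0.0636 by DESeq2 and up to 0.781 among females alone. Bmal1WT replicate 4 was the lowest library for Ttk, and without it the log2 fold change was 0.30. Ttk also went its own way among the libraries: Bmal1cKO replicate 3, among the 2 lowest libraries for 24 members, was its highest.

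Mad2l1, the checkpoint protein that binds CDC20, was at 12.3, 14.5, 15.0 and 15.0 CPM in Bmal1WT and 13.9, 18.2, 16.2 and 18.7 CPM in Bmal1cKO (0.24 ± 0.11, edgeR adjusted p = 0.599). Its groups overlapped through Bmal1cKO replicate 1. The kinase gene Bub1 had a log2 fold change of 0.30 and Bub1b, which encodes BUBR1, 0.13. Cdc20, the target of the checkpoint and activator of the APC/C, was at -0.19, and Ube2c, the ubiquitin-conjugating enzyme of the APC/C, at -0.02.

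Of 6 centromere and outer kinetochore genes 3 lay above 0, with a median of 0.03. Spc25, a subunit of the NDC80 complex that holds microtubules, was at 5.73, 6.31, 6.70 and 6.97 CPM in Bmal1WT and 7.24, 9.42, 6.65 and 9.05 CPM in Bmal1cKO (0.33 ± 0.13, edgeR adjusted p = 0.534). Only Bmal1cKO replicate 3 lay within the Bmal1WT range. The other NDC80 subunit genes Ndc80 and Nuf2 were at 0.27 and 0.15. Cenpf, a large kinetochore and nuclear envelope protein of G2, was at 49.9, 53.0, 51.6 and 44.9 CPM in Bmal1WT and 41.2, 51.7, 35.8 and 43.3 CPM in Bmal1cKO (-0.21 ± 0.10, edgeR adjusted p = 0.642). Here Bmal1cKO replicate 2 lay inside the Bmal1WT range and the other 3 below it. The kinetochore motor gene Cenpe was at -0.15 and Cenpa, the centromeric histone H3, at -0.09.

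All 3 members of the chromosomal passenger complex, which corrects faulty attachments, lay above 0, with a median of 0.17. Aurkb, its kinase, was at 8.44, 10.5, 9.13 and 11.2 CPM in Bmal1WT and 11.4, 12.9, 10.6 and 11.7 CPM in Bmal1cKO (0.25 ± 0.10, edgeR adjusted p = 0.573). Birc5, which encodes survivin, was at 9.35, 10.6, 11.9 and 11.8 CPM and at 11.1, 14.8, 10.9 and 12.3 CPM (0.17 ± 0.12, edgeR adjusted p = 0.767). Cdca8, which encodes borealin, was at 12.8, 14.9, 16.1 and 16.2 CPM and at 13.9, 19.7, 15.4 and 16.8 CPM (0.13 ± 0.12, edgeR adjusted p = 0.845). The groups of all 3 genes overlapped, and Bmal1cKO replicate 2 was the highest library for each.

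Among 7 spindle kinesins and spindle assembly factors 4 lay above 0, with a median of 0.07. Kif11, the motor that pushes the spindle poles apart, was at 24.5, 30.5, 29.9 and 28.7 CPM in Bmal1WT and 31.2, 40.4, 30.0 and 35.4 CPM in Bmal1cKO (0.27 ± 0.10, edgeR adjusted p = 0.528). Its groups overlapped only between Bmal1WT replicate 2 and Bmal1cKO replicate 3. Kif18b, a motor that shortens astral microtubules, was at 9.38, 8.28, 9.82 and 9.28 CPM and at 9.75, 12.0, 8.39 and 11.2 CPM (0.17 ± 0.12, edgeR adjusted p = 0.774). The microtubule depolymerase Kif2c was at -0.15, the chromokinesin Kif4 at -0.09 and Hmmr, a spindle-associated protein, at -0.11, with Tpx2, the activator of Aurora A, at 0.12 and Nusap1 at 0.07.

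Another 7 members act at the spindle midzone and in cytokinesis, with a median of 0.08 and 4 above 0. Anln, the actin-binding anillin of the cleavage furrow, was at 65.0, 77.5, 86.7 and 69.4 CPM in Bmal1WT and 70.4, 102, 67.1 and 77.0 CPM in Bmal1cKO (0.08 ± 0.14, edgeR adjusted p = 0.934). Prc1, which bundles midzone microtubules, was at 55.3, 60.2, 60.8 and 58.8 CPM and at 60.7, 74.4, 55.5 and 64.8 CPM (0.12 ± 0.08, edgeR adjusted p = 0.786). Racgap1, a subunit of centralspindlin, was at 27.4, 33.7, 33.3 and 31.1 CPM and at 31.5, 44.1, 29.0 and 37.2 CPM (0.18 ± 0.13, edgeR adjusted p = 0.792). Kif23, its partner motor, was at -0.02, Ect2, needed for cytokinesis, at -0.07, and the motors Kif20a and Kif20b at -0.08 and 0.11. The groups of all 7 overlapped.

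Top2a and Mki67, proteins of the mitotic chromosome, had the highest CPM of the 40 members. Top2a, the topoisomerase that untangles sister chromatids, was at 94.2, 108, 119 and 107 CPM in Bmal1WT and 113, 147, 110 and 130 CPM in Bmal1cKO (0.22 ± 0.10, edgeR adjusted p = 0.609). Mki67, the gene of the proliferation marker Ki-67 (ENSMUSG00000031004, chromosome 7, 135689784 to 135716361), was at 175, 230, 201 and 220 CPM in Bmal1WT and 180, 252, 186 and 251 CPM in Bmal1cKO. Its means were 206 ± 24.3 and 217 ± 39.5 CPM (SD, n = 4), which differ by 0.08 ± 0.13 on the log2 scale (SE, edgeR adjusted p = 0.937), and in either group the male libraries were its 2 highest. Per kb of exon, Cks2 led with 23.1 CPM per kb, followed by Mki67 with 21.1, Cdc20 with 13.4 and Top2a with 12.9, and Ndc80 was lowest with 1.15. The length used was that of all annotated exon bases of a gene, which can exceed any 1 transcript, so this order depends on the annotation.

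**Figure D3:**
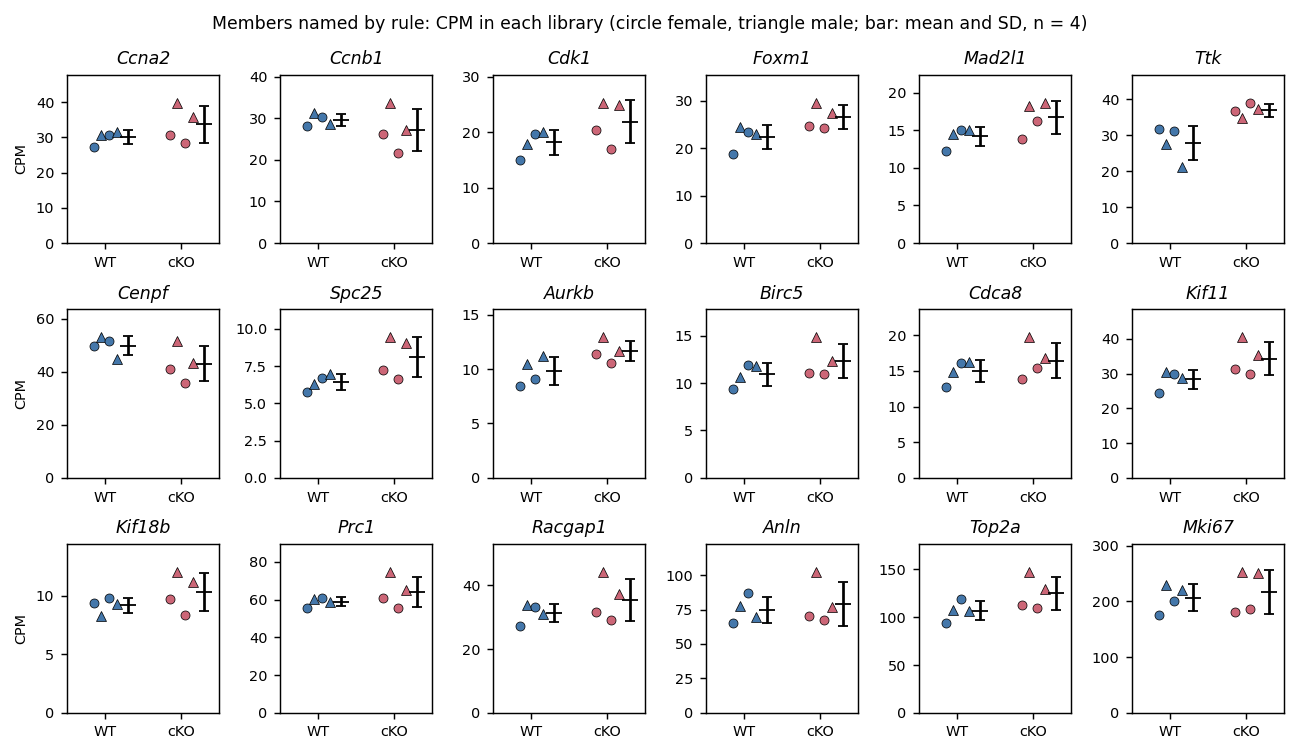
CPM (y axes, from 0) of 18 members in each Bmal1WT (blue) and Bmal1cKO (red) library, with circles for libraries read as female, triangles for male, and bars for the mean and SD (n = 4). Ttk is the gene whose groups are apart, with Bmal1WT at 21.2 to 31.6 CPM and Bmal1cKO at 34.6 to 39.0 CPM. Of all tested genes 2.64% were apart in this direction.

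With genotype in the model, 39 of the 40 members were higher in the male than in the female libraries, with a median log2 difference of 0.21, where 48.3% of all tested genes were higher in males. Ttk was the exception, at -0.22. Most members moved together by library, so these 40 are not independent observations. EdgeR called 2 members, both higher in males, against 1.84% of all genes. Mki67 had a male over female log2 fold change of 0.36 (edgeR adjusted p = 0.0303) and Cdca3 one of 0.30 (edgeR adjusted p = 0.0301). At an unadjusted p under 0.05 there were 22 members, where 17.9% of all genes passed. Both calls were kept without Bmal1cKO replicate 1, and that of Mki67 without Bmal1WT replicate 3. Leaving out any other library ended both calls, with an adjusted p of up to 0.12 for Mki67 and 0.108 for Cdca3 without Bmal1WT replicate 1. Both male libraries lay above both female ones for 38 members within Bmal1cKO, against 21.0% of all genes, and for 13 members within Bmal1WT, against 22.1%. The 10 Langerhans cell markers moved with the same split, summing to 542 to 642 CPM in the female and 230 to 420 CPM in the male libraries, without overlap, while the sums of the other 7 marker lists overlapped between the sexes. Their part in the members' values was not tested. The labels give no age per library, so sex and any other difference between replicates 1 and 3 and replicates 2 and 4 cannot be told apart.

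Within each sex the genotypes were compared over 2 and 2 libraries in 1 model. In the female libraries 19 members lay above 0 and 21 below, with a median log2 fold change of -0.02, and 49.2% of all genes lay above 0. In the male libraries 34 lay above 0 and 6 below, with a median of 0.21, and 46.9% of all genes lay above 0. EdgeR called 0 members in either sex, where it called 0.107% of all genes in females and 0.514% in males. At an unadjusted p under 0.05 there were 6 members in females, where 6.89% of all genes passed, and 14 in males, where 11.7% passed. The male difference was the larger for 39 of 40 members, with Aurkb as the exception, and for 49.4% of all genes. Most members moved together by library, with Bmal1cKO replicate 2, read as male, highest for 35 of the 40. Such counts of members are therefore not counts of independent observations. When the difference between the sexes was tested itself, 0 members and 0.00509% of all genes passed, with a lowest edgeR adjusted p of 0.736 for a member. The 2 members at an unadjusted p under 0.05 were Kif18b and Hmmr, where 1304 of all 19646 genes passed. Bub1 was at 0.05 in females and 0.50 in males, Cenpf at -0.40 and -0.04, and Ttk at 0.28 and 0.56.

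**Figure D4:**
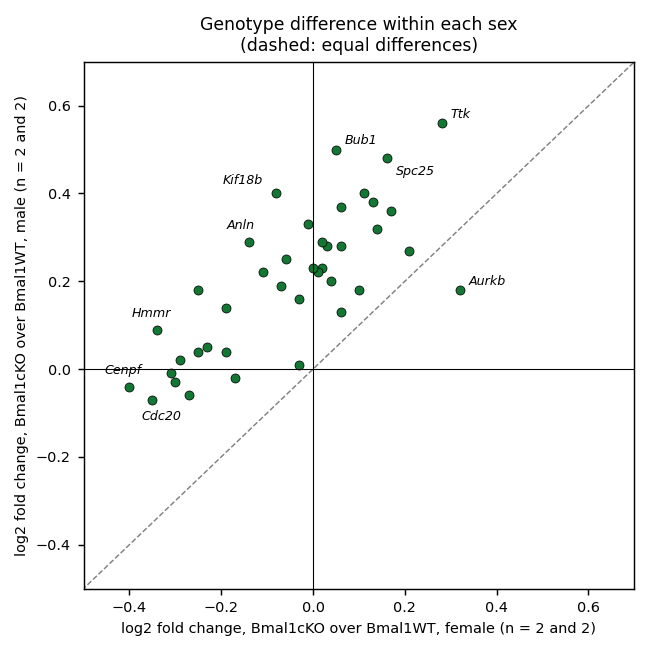
Log2 fold change, Bmal1cKO over Bmal1WT, of the 40 genes in the female (x axis) and the male libraries (y axis), 2 and 2 libraries each, with a dashed line for equal differences. All points except Aurkb lie above the line, although 0 members passed the test of the difference.

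The other genes of the pathway were taken from a list of 74 further G2 and mitosis genes, all of them tested. EdgeR called 0 of these as higher and 1 as lower, where it called 0.173% of all genes. At an unadjusted p under 0.05, 16 were higher and 1 lower, where 4.50% of all genes were higher and 8.30% passed in either direction. The gene that fell was Cdc25b, the phosphatase that removes the inhibitory phosphates from CDK1, at 60.3, 52.5, 60.8 and 52.6 CPM in Bmal1WT and 23.0, 26.4, 23.1 and 23.4 CPM in Bmal1cKO (-1.24 ± 0.07, edgeR adjusted p = 6e-05). Ncapg2, a subunit of condensin II, was at 27.0, 28.5, 27.5 and 28.3 CPM and at 35.9, 46.9, 34.5 and 46.6 CPM, without overlap (0.56 ± 0.10, edgeR adjusted p = 0.0974). With the replicate number as a block, edgeR called 4 of these genes, Ncapg2, Kntc1 and Mybl2 as higher and Cdc25b as lower. That fit called 152 of all 19646 genes. The median of the 74 was 0.14, with 59 above 0 and 15 below.

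The 40 S phase genes, which encode the replication machinery, lay above 0 without exception, with a median log2 fold change of 0.43. EdgeR called 0 of them, where it called 0.173% of all genes. There were 28 at an unadjusted p under 0.05, all higher, where 4.50% of all genes were. The calls were 7 by DESeq2, 0 by limma voom and 1 with the replicate block. Over all 19646 genes they were 252, 29 and 152. Ccne2, the cyclin of the G1 to S transition, was at 4.31 to 4.90 CPM in Bmal1WT and 5.77 to 8.38 CPM in Bmal1cKO (0.60 ± 0.13, edgeR adjusted p = 0.147). Clspn, the checkpoint mediator of the replication fork, was at 8.41 to 10.7 and 12.6 to 20.9 CPM (0.82 ± 0.17, edgeR adjusted p = 0.15). The groups were apart, with Bmal1cKO higher, for 16 of the 40 S phase genes and for 1 of the 40 G2 and mitosis members, against 2.64% of all genes, and the difference between the lists was not tested. By the same measure as above, the median S phase gene was at -0.25, -0.26, -0.15 and -0.09 in Bmal1WT and at -0.12, 0.39, -0.05 and 0.57 in Bmal1cKO. Bmal1cKO replicate 4 was thus the highest library for the S phase genes, and Bmal1cKO replicate 2 for the G2 and mitosis genes.

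**Figure D5:**
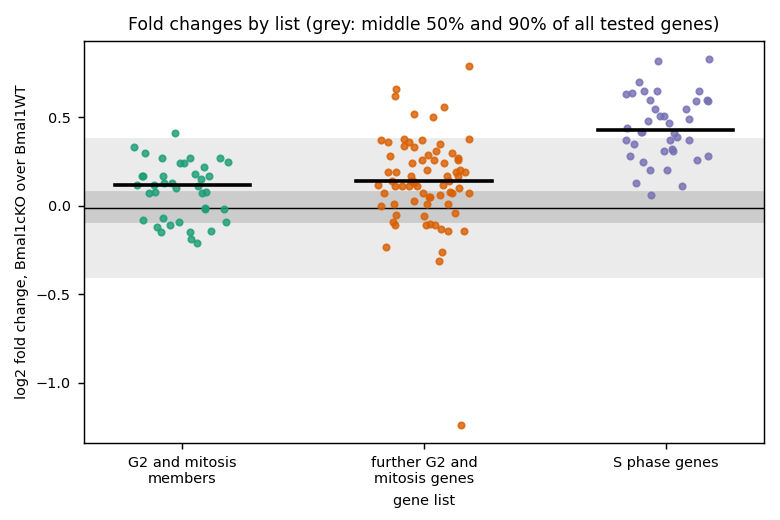
Log2 fold change, Bmal1cKO over Bmal1WT (y axis), of the 40 members, the 74 further genes and the 40 S phase genes, 1 point per gene, with black bars for the medians and grey bands for the middle 50% and 90% of all tested genes. The medians are 0.11, 0.14 and 0.43, and the lone point at -1.24 is Cdc25b.

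Markers of other cells were read beside these values. The 12 basal keratinocyte markers, of which 0 were called, summed to 21400 to 23400 CPM in Bmal1WT and 23300 to 24800 CPM in Bmal1cKO, with Bmal1cKO replicate 2 highest. The 12 suprabasal markers were all below 0 in Bmal1cKO, with a median of -0.61 and 0 called, and summed to 19600 to 29200 and 14000 to 21400 CPM. The 21 growing hair follicle markers found in the table, of which 16 were tested and 0 called, had a median of -1.26 and summed to 41.7 to 119 CPM in Bmal1WT and 30.2 to 53.7 CPM in Bmal1cKO. Bmal1cKO replicate 2, the highest library for the members, was the lowest for the follicle markers, with 30.2 CPM, and Bmal1WT replicate 4, with 119 CPM, held a median member at 0.01. The 10 Langerhans cell markers, split by sex as given above, summed to 230 to 611 CPM in Bmal1WT and 278 to 642 CPM in Bmal1cKO, the 10 epidermal T cell markers to 95.7 to 121 and 97.8 to 168 CPM, and the 10 dermal fibroblast markers to 554 to 813 and 482 to 767 CPM. Of the 10 epidermal T cell markers, 1 lay above 0 in Bmal1cKO and 9 below, with a median of -0.34 and 0 called. The 8 melanocyte markers summed to 25.0 to 43.4 and 19.6 to 45.0 CPM and the 8 endothelial markers to 1.82 to 3.59 and 1.44 to 2.95 CPM. None of these markers was at 0 in all libraries, and the part of the other cells in the members' values was not tested.

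Some members share exon bases with a neighbour on the other strand. The longest stretch was 1271 bases of Kif20a with Cdc23, followed by 911 bases of Prc1 with Rccd1 and 832 of Kif4 with Pdzd11. Ube2c shares 592 bases with Tnnc2, which held 27 counts over the 8 libraries beside 5040 of Ube2c. Whether the counting used strand is not stated, so values of these genes and of Ccna2, Cdc20, Cdca8, Plk1 and Nusap1, which also have such neighbours, are uncertain. On the same strand Foxm1 shares 144 bases with Tex52 and 97 with Gm44596, which held 429 and 339 counts beside 7879 of Foxm1, and Top2a shares 122 with the snoRNA gene Gm23451, which held 10 beside 37509. Counting by strand would not separate these, so both genes are uncertain to that extent too.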

How the data were processed

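Per the submitters' processing notes, reads were handled with Trim Galore, STAR 2.7.10a and featureCounts on GRCm38 (mm10). The authors deposited raw counts per Ensembl gene as whole numbers, 1 column per library. No source used here states the annotation release, whether strand was counted, or how reads with several matches were handled. Per the labels' protocols, libraries were stranded polyA libraries. GENCODE M21 (GRCm38) named 33974 of 34070 identifiers.

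The test was that of edgeR 4.0.16 (R 4.3.3), with filterByExpr (minimum count 10, minimum total 15), TMM scaling (factors 0.966 to 1.03) and the quasi-likelihood F-test (two-sided), genotype as the only term, and Benjamini-Hochberg adjustment over all 19646 genes tested. Called genes are those with an adjusted p under 0.05. SE is the log2 fold change divided by the root of F. The test was first checked on simulated counts with known changes of 2-fold and 4-fold. It recovered 98 of 100 changes of 2-fold and 100 of 4-fold, with 10 false calls. Changes as small as those of the members were not simulated, so the check does not show whether such changes would be called. Alternatives used RLE and upper-quartile scaling, DESeq2 1.42.0, limma voom 3.58.1, no filter, the replicate block, sex as a covariate, each sex alone and each library left out. Libraries with the same number correlated across genes in their deviations from the group means (0.35, 0.51, 0.41 and 0.38), each above the 0.1 required for pairing, and they also share a sex.

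Values per library are given for the 2 members with the smallest p and the one with the highest CPM in each of 7 roles, and for Mki67, Top2a, Ccnb1 and Cdk1. The members and lists were chosen with earlier results of these data known. Some results for marker genes under the alternatives are not reported here.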

Additional observations from a re-analysis of the deposited data

Results flagged for a closer look

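Each of the 40 members was looked at in both groups for a library far from the other 3, which made 80 sets of 4 libraries. In 1 set a library stood apart, where chance gives about 5% of sets. Cenpa, which encodes the centromeric histone H3, was at 35.0 CPM in Bmal1cKO replicate 2, above the next library at 25.8 CPM, a gap of 0.846 of the range of the group. The same library held the highest value of 35 of the 40 members. Without it, as with it, Cenpa was not called.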

How the results depend on the processing

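The 0 calls among the 40 members held under every alternative run, and the median log2 fold change of the members ran from 0.04 to 0.16 with a library left out, -0.02 in the female and 0.22 in the male libraries alone. Of 306 fold changes of named members under the alternatives, 299 kept their direction and 7 did not. In the female libraries alone Kif18b was at -0.08, Racgap1 at 0, Anln at -0.14 and Mki67 at -0.03. In the male libraries alone Ccnb1 was at 0.03. With a library left out Anln ran from -0.06 to 0.16 and Mki67 from 0 to 0.16, both lowest without Bmal1cKO replicate 2. The cause of these changes was not tested. Over all genes, 34 were called, against 252 with DESeq2, 71 without a filter, 152 with the replicate block, 119 with sex as a covariate, 13 in the female and 101 in the male libraries alone, and 23 to 32 with a library left out. Of the further G2 and mitosis genes, 1 was called, against 5 with DESeq2, 2 without a filter, 4 with the replicate block, 4 with sex as a covariate and 3 in males alone. Of the S phase genes, 0 were called, against 7 with DESeq2, 1 with the replicate block, 2 with sex as a covariate and 9 in males alone. Outside these lists the block also brought Arntl under the threshold (adjusted p = 0.0358), as did DESeq2 (5.96e-05), no filter (0.0315) and sex as a covariate (0.0342). It also called Thy1, an epidermal T cell marker, as higher, and DESeq2 called the suprabasal markers Cnfn and Flg as lower. In the main fit, 1 of the 10 epidermal T cell markers lay above 0 and 9 below, with a median log2 fold change of -0.34. Values for Arntl and the markers were added after the data were seen. Male over female, 0 to 2 members were called with a library left out, an alternative added after the data were seen. The least counted member, Spc25, held 2339 counts over the 8 libraries.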

Other observations

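Ratios between members were read within each library, where total counts cancel. The ratio of Ccnb1 to Cdk1 counts within a library was 1.87, 1.75, 1.55 and 1.44 in the Bmal1WT libraries. In the Bmal1cKO libraries it was 1.29, 1.33, 1.28 and 1.10, so the groups did not overlap. The mean ratio was 1.65 ± 0.194 in Bmal1WT and 1.25 ± 0.103 in Bmal1cKO (SD, n = 4). The ratio of Cdc20 to Cdk1 counts was 1.34 to 1.65 in Bmal1WT and 0.923 to 1.22 in Bmal1cKO, and that of Ccnb1 to Ccna2 was 0.911 to 1.03 and 0.758 to 0.854, again without overlap. A ratio does not show which of its genes differed. These pairs were picked after their values had been seen and are given with no test. Of all 780 pairs of members, the ratios of 186 (23.8%) did not overlap between the groups, against 5.26% of the 192521253 pairs of tested genes with counts in every library. Pairs that share a gene are not independent, and the genes of the background differ from the members in level and spread, so the shares are given with no test. Most members also moved together by library, with Bmal1cKO replicate 2 highest for 35 of the 40. Such shared movement cancels in a ratio between members and need not cancel between other genes, so the shares are not a like comparison. Spc25 was part of 22 of the 186 pairs of members and Cenpf of 20.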
